A study of Homo sapiens with 12 samples.

Results

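HepG2 cells kept in either of 2 DMEM media were compared with HepG2 cells kept in EMEM, to see which transcripts differed with the DMEM base whatever its glucose level. The comparison took 9 of the 12 libraries of the series. The 6 DMEM libraries, 3 in low-glucose DMEM (LGDMEM) and 3 in high-glucose DMEM (HGDMEM), were treated as 1 group and set against the 3 EMEM libraries. The 3 remaining libraries, from cells in the plasma-like medium Plasmax, entered the statistical fit only as a separate group that shares the estimate of spread. HepG2 is an established human liver cancer line that makes many plasma proteins of hepatocytes, and all cells were labelled wild type. All had been maintained in EMEM with 10% heat-inactivated fetal bovine serum, 1 mM pyruvate and 2 mM glutamine. They were seeded in EMEM with the same serum, washed 24 h later and given their test medium, also with 10% serum. The medium was renewed after 48 h and RNA was taken 96 h after the switch. EMEM cells thus stayed in the medium they were grown in, while both DMEM groups had changed medium. The recipes of the media, including whether pyruvate and glutamine were added to DMEM, are not given in the sources used here.

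EMEM and DMEM are both salt, glucose, amino acid and vitamin solutions to which serum is added. DMEM was derived from the same minimal formula as EMEM and is richer in amino acids and vitamins, and it also contains an iron salt, ferric nitrate. Hepatocytes respond to amino acid and iron supply through known routes: amino acid shortage acts through the transcription factor ATF4, and iron acts through transferrin receptor, ferritin and the hormone hepcidin. In these bulk libraries, fewer cells of a type and less RNA per cell cannot be told apart.

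Few transcripts separated DMEM from EMEM. Of 10945 genes tested, 11 were called at an adjusted p under 0.05 (0.101% of genes), 3 of them higher (0.0274%) and 8 lower (0.0731%) in DMEM. The test was the quasi-likelihood test of edgeR, with p-values adjusted by Benjamini-Hochberg over all genes. The secreted liver protein ANGPTL8, the serum amyloid SAA4 and the acetyltransferase SAT2 rose in DMEM. Among the genes that fell were the Wnt-inactivating enzyme NOTUM, the matrix and cell-surface genes MATN3, MXRA8 and PLPPR1, the intermediate filament gene NES, the scaffold gene SLC9A3R2 and the carrier gene SLC13A3. In all 11 genes the 6 DMEM libraries lay wholly above or wholly below the 3 EMEM libraries, as they did in 4.3% of all genes tested, and 7 of the 11 differed by at least 2-fold. With each DMEM medium set singly against EMEM, 2 of the 11 were called in LGDMEM, SAT2 and MXRA8, and 7 in HGDMEM. Over all 10945 genes the calls were 8 and 18. At an unadjusted p under 0.05 there were 778 genes (7.11%), 372 of them higher in DMEM (3.4%) and 406 lower (3.71%).

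Promoter sequence is shown for the pair of genes called in every alternative analysis, SAT2 and MXRA8, and for ANGPTL8, the called gene with the largest fold change. Each sequence is the stretch just upstream of the transcription start, 5′ to 3′ on the gene's strand, from RefSeq on build GRCh38.p14: chr19:11239369-11239618 on the plus strand for ANGPTL8, chr17:7627877-7628126 on the minus strand for SAT2 and chr1:1358548-1358797 on the minus strand for MXRA8. Capitals mark matches, on either strand, to 1 of 4 motifs.
ANGPTL8: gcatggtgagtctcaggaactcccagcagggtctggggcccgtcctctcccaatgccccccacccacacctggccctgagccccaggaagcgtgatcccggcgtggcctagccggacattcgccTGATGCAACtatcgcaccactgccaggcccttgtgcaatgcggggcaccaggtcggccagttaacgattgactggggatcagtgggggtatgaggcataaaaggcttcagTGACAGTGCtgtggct
SAT2: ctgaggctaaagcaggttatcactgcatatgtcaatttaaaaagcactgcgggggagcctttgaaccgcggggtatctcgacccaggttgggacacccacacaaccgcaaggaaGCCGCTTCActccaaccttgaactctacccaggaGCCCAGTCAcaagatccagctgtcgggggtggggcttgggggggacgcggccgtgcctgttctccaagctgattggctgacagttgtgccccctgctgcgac
MXRA8: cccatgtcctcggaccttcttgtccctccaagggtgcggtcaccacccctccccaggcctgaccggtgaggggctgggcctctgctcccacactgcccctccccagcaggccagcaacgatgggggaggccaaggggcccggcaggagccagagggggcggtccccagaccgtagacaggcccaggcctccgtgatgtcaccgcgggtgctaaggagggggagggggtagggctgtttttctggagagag
The capitals in ANGPTL8 are TGATGCAAC, a match to the ATF4 response element TGATGNAAN that begins at base -126 from the start, and TGACAGTGC, a match to the antioxidant response core TGANNNNGC at base -16. The capitals in SAT2 are GCCGCTTCA at -136 and GCCCAGTCA at -102, both matches to the antioxidant core on the other strand. No motif letters matched in MXRA8.

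Promoters were searched over 300 bases, which includes 50 bases after the start, for 8917 of the 10945 genes tested, and 8 of the 11 called genes had one. NOTUM and SLC13A3 were among those without. The ATF4 element stood in 1.58% of all promoters and, among the called genes, in ANGPTL8. The antioxidant core stood in 43.1% of all promoters and in 4 called genes: ANGPTL8, SAT2, NES and PLPPR1. The E-box CACGTG stood in 10.5% of all promoters and in 0 of the 8. The endoplasmic reticulum stress element, searched as its full consensus, stood in 0.157% of all promoters and in 0 of the 8. Genes with an unadjusted p under 0.05 had 305 promoters on the higher side in DMEM and 327 on the lower side. The E-box was in 48 of the higher (15.7%) and 22 of the lower (6.73%). The antioxidant core was in 44.9% and 36.1%, the ATF4 element in 1.97% and 1.22% and the stress element in 0.328% and 0%. These matches describe letters, and the counts do not show binding of any factor.

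Levels below are in CPM, counts relative to the library size after TMM scaling. The labels do not state that the 3 libraries of a medium come from separate cultures, and the p-values therefore reflect a spread between libraries that may be technical. ANGPTL8 encodes a secreted protein that takes part in holding back lipoprotein lipase and that liver makes after feeding. Its level was 13.4, 27.7 and 12.9 CPM in LGDMEM 1 to 3, 18.2, 12.9 and 26.4 CPM in HGDMEM 1 to 3, and 2.67, 3.38 and 6.52 CPM in EMEM 1 to 3. No library crossed, although the DMEM libraries of ANGPTL8 varied among themselves by more than the gap to EMEM. The rise was 4.41-fold, a log2 fold change of 2.14 (SE 0.35, edgeR adjusted p = 0.0194). It was 2.10 in LGDMEM alone and 2.18 in HGDMEM alone on the log2 scale, values that share the EMEM libraries. HGDMEM minus LGDMEM was 0.08, with a 95% interval of -0.65 to 0.80. The call was lost without EMEM 1 (adjusted p = 0.116) and without EMEM 2 (0.206), with log2 fold changes of 1.92 and 2.00. It was also lost with limma voom (adjusted p = 0.126). ANGPTL8 lies within DOCK6 on the opposite strand, and whether counting used strand is not given in the sources used here. DOCK6 had a log2 difference of 0.61 (SE 0.20, adjusted p = 0.415).

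SAA4 encodes the constitutive member of the serum amyloid A family, carried on high-density lipoprotein. Its levels were 19.2, 16.7 and 15.2 CPM in LGDMEM, 31.9, 24.7 and 17.1 CPM in HGDMEM, and 6.07, 5.34 and 6.10 CPM in EMEM. The EMEM libraries were close to each other and every DMEM library was far above them. SAA4 rose 3.57-fold (log2 fold change 1.84, SE 0.32, edgeR adjusted p = 0.0218). HGDMEM exceeded LGDMEM by 0.53 on the log2 scale, with a 95% interval of -0.10 to 1.17. The call was lost without HGDMEM 2 (adjusted p = 0.0605), EMEM 1 (0.116), EMEM 2 (0.208) or EMEM 3 (0.158), while the log2 fold change stayed between 1.67 and 1.91 with any 1 library left out. SAA4 was not called by limma voom either (adjusted p = 0.0728). A read-through gene, SAA2-SAA4, shares its strand and sequence, so reads may be split between them.

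SAT2 encodes an N-acetyltransferase related to the polyamine enzyme SAT1. It was at 113.3, 120.9 and 113.0 CPM in LGDMEM, 82.9, 91.4 and 104.7 CPM in HGDMEM, and 41.5, 52.2 and 55.3 CPM in EMEM. All DMEM libraries stood above EMEM, with LGDMEM above HGDMEM. The rise was 2.10-fold (log2 fold change 1.07, SE 0.15, edgeR adjusted p = 0.00604). It was 1.22 in LGDMEM alone and 0.90 in HGDMEM alone. HGDMEM minus LGDMEM was -0.32, with an adjusted p of 0.632. The call of SAT2 held in 19 of 19 alternative analyses, not counting the one without a filter, since the filter removed 0 genes. SAT2 overlaps SHBG on the opposite strand, and SHBG was not among the genes tested.

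Among the genes that fell, NOTUM is a secreted esterase that strips the lipid from Wnt proteins and is itself switched on by Wnt signalling. It was at 690.1, 993.7 and 1030 CPM in LGDMEM, 788.2, 844.8 and 697.6 CPM in HGDMEM, and 1451, 1681 and 1152 CPM in EMEM. The highest DMEM library was below the lowest EMEM library by less than the range within EMEM. NOTUM fell by 0.76 on the log2 scale (SE 0.13, edgeR adjusted p = 0.0218). LGDMEM alone gave -0.66 (edgeR adjusted p = 0.112) and HGDMEM alone -0.88 (edgeR adjusted p = 0.0192). The call was lost without HGDMEM 2 (adjusted p = 0.0577), HGDMEM 3 (0.0698), EMEM 1 (0.116) or EMEM 2 (0.268), where the log2 fold change was -0.77, -0.72, -0.75 and -0.63. NOTUM was also not called with the 9 libraries fitted alone (0.0879).

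MXRA8, a cell-surface protein with immunoglobulin domains linked to matrix remodelling, had the smallest p of all genes. It was at 54.5, 67.8 and 70.6 CPM in LGDMEM, 65.6, 61.4 and 63.7 CPM in HGDMEM, and 115.1, 110.5 and 109.4 CPM in EMEM. The spread inside each medium was small beside the gap between the groups. MXRA8 fell by 0.80 on the log2 scale (SE 0.11, edgeR adjusted p = 0.00604), with -0.79 in LGDMEM and -0.81 in HGDMEM, and its call held in the same 19 of 19 alternative analyses. HGDMEM minus LGDMEM was -0.02, with a 95% interval of -0.31 to 0.27.

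MATN3, matrilin 3, is a matrix protein best known from cartilage. It was at 91.4, 93.6 and 178.4 CPM in LGDMEM, 83.8, 89.1 and 107.7 CPM in HGDMEM, and 224.5, 281.9 and 240.0 CPM in EMEM. LGDMEM 3 lay apart from the other 5 DMEM libraries, toward EMEM. MATN3 fell by 1.22 on the log2 scale (SE 0.18, edgeR adjusted p = 0.00841), and by 1.42 without LGDMEM 3 (adjusted p = 9.95e-07). The call was lost without EMEM 2 (log2 fold change -1.11, adjusted p = 0.0771).

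PLPPR1, a membrane protein of the lipid phosphatase-related family, is best known from nervous tissue. It ran from 22.4 to 29.03 CPM in DMEM (median 25.1) and was at 43.5, 60.9 and 56.0 CPM in EMEM. EMEM 1 was the lowest EMEM library of PLPPR1 and still above all DMEM libraries. PLPPR1 fell by 1.07 on the log2 scale (SE 0.19, edgeR adjusted p = 0.0226). The call was lost without HGDMEM 2, HGDMEM 3, EMEM 2 or EMEM 3, with adjusted p from 0.0605 without HGDMEM 2 to 0.238 without EMEM 2.

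NES encodes nestin, an intermediate filament protein of progenitor cells. It was at 18.4, 21.2 and 17.0 CPM in LGDMEM, 18.9, 19.5 and 19.04 CPM in HGDMEM, and 42.0, 32.4 and 33.9 CPM in EMEM. The 6 DMEM libraries were nearly level with each other. NES fell by 0.92 on the log2 scale (SE 0.15, edgeR adjusted p = 0.0194), with -0.93 in LGDMEM and -0.91 in HGDMEM. The call was lost without EMEM 1 (log2 fold change -0.80, adjusted p = 0.13) and without EMEM 3 (-0.96, 0.059).

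SLC9A3R2 encodes NHERF2, a scaffold that ties membrane transporters to the actin cortex, and SLC13A3 encodes a sodium-driven carrier of dicarboxylates such as succinate. SLC9A3R2 was between 7.32 and 14.1 CPM in DMEM (median 10.8) and at 17.5, 53.8 and 21.5 CPM in EMEM. EMEM 2 was far above the other 2 EMEM libraries. SLC9A3R2 fell by 1.57 on the log2 scale (SE 0.29, edgeR adjusted p = 0.0413), and the size rests on EMEM 2, without which the log2 fold change was -0.89 (adjusted p = 0.595). The call was also lost without LGDMEM 1 (0.0898), LGDMEM 2 (0.0529), HGDMEM 2 (0.111), HGDMEM 3 (0.103) or EMEM 3 (0.059). Limma voom (0.0831) and the 9 libraries alone (0.104) did not call SLC9A3R2. SLC13A3 was between 102.3 and 118.6 CPM in DMEM (median 112.5) and at 175.5, 185.3 and 196.5 CPM in EMEM, so that its groups were tight and well apart. It fell by 0.74 (SE 0.14, adjusted p = 0.0413). Its call was lost with each single library left out other than LGDMEM 3, with adjusted p from 0.056 without LGDMEM 2 to 0.259 without EMEM 3, while the log2 fold change stayed between -0.78 and -0.70.

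**Figure D1:**
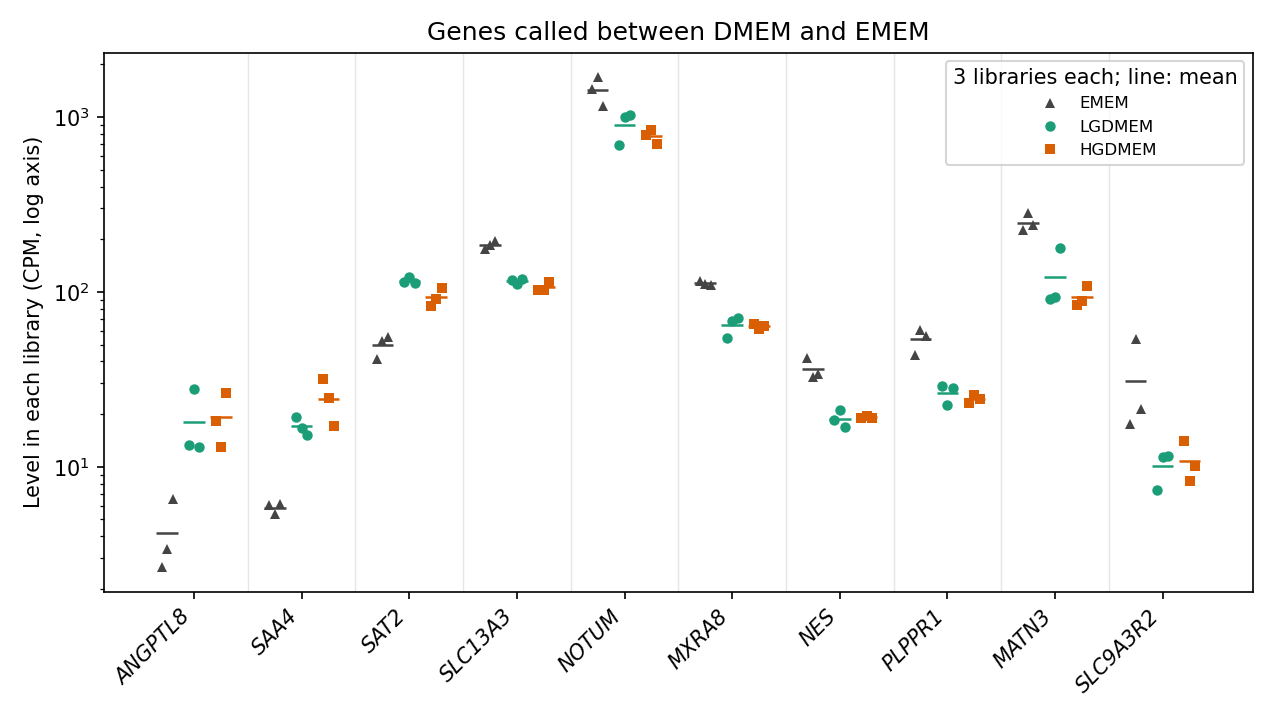
Level of 10 of the 11 called genes in CPM on a log axis, with triangles for EMEM, circles for LGDMEM, squares for HGDMEM and a line at the mean of the 3 libraries of a medium. All 6 DMEM libraries lie above EMEM in ANGPTL8, SAA4 and SAT2 and below EMEM in the other 7 genes shown, and LGDMEM 3 stands apart in MATN3 at 178.4 CPM.

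The count of 11 calls moved with single libraries. It was 25 without LGDMEM 3, 5 without HGDMEM 2, 6 without HGDMEM 3, 7 without EMEM 1, 5 without EMEM 2 and 5 without EMEM 3. The 25 calls without LGDMEM 3 held all 11, with 7 higher and 18 lower in DMEM. They also took in the heparan sulphate proteoglycan SDC4, at 170.4, 192.8 and 237.5 CPM in LGDMEM, 164.1, 136.4 and 160.1 CPM in HGDMEM and 303.2, 233.2 and 310.9 CPM in EMEM. SDC4 had a log2 difference of -0.68 (adjusted p = 0.1002) with LGDMEM 3 and -0.77 (adjusted p = 0.0080) without it. LGDMEM 3 was the only DMEM library of SDC4 above the lowest EMEM library. SERPINC1, the antithrombin gene, had a log2 difference of 0.81 (adjusted p = 0.0968) with LGDMEM 3 and 0.68 (adjusted p = 0.0451) without it. GSTA1, a glutathione transferase of liver, had 1.35 (adjusted p = 0.184) with it and 1.48 (adjusted p = 0.0428) without it. DESeq2 called 49 genes, among them all 11, and taking LGDMEM and HGDMEM as 2 groups with the contrast of their mean log2 level called 23 (0.21% of genes), also with all 11.

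**Figure D2:**
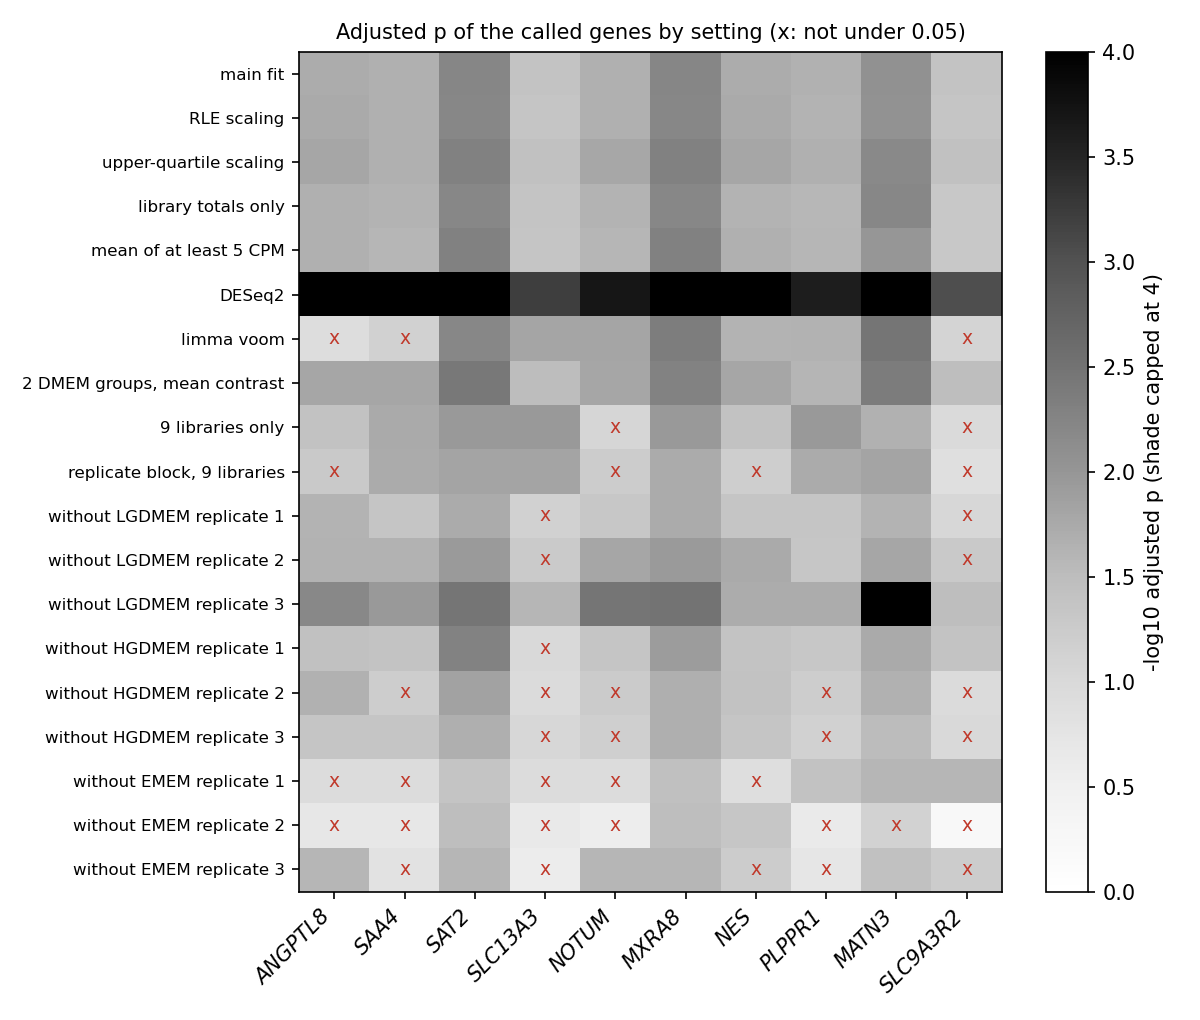
Adjusted p of 10 of the 11 called genes (columns) under the main analysis and 18 of the alternatives (rows), shaded by -log10 of the adjusted p up to 4, with a cross where it was not under 0.05. MXRA8 and SAT2 carry no cross, and each of the other 8 genes shown carries at least 1.

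The pooled comparison counts any difference between the DMEM media as spread, so genes that differ between them are called less readily. Between HGDMEM and LGDMEM, 7 genes were called (0.064% of genes tested), among them TXNIP, an arrestin that cells raise with glucose. TXNIP was at 1.01, 5.50 and 4.53 CPM in LGDMEM, 43.9, 30.1 and 51.2 CPM in HGDMEM and 57.0, 20.3 and 34.1 CPM in EMEM. The LGDMEM libraries were low and HGDMEM overlapped EMEM. Its log2 difference was -3.26 in LGDMEM alone and 0.18 in HGDMEM alone. With all 6 DMEM libraries as 1 group it was -0.67 (adjusted p = 0.885). HGDMEM minus LGDMEM was 3.44 (95% interval 2.62 to 4.26, edgeR adjusted p = 0.00057). TXNIP was 1 of the 23 genes called with the contrast of mean log2 levels, at -1.54 with an adjusted p of 0.0318, a contrast that does not count the difference between the 2 DMEM media as spread. ARRDC4, a related arrestin, had 4 reads in HGDMEM 2, 1 read in EMEM 1 and none in the other 7 libraries compared.

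CPLX2, which encodes the exocytosis regulator complexin 2, was at 191.1, 205.4 and 220.1 CPM in LGDMEM, 112.2, 112.9 and 101.9 CPM in HGDMEM and 248.5, 202.7 and 216.5 CPM in EMEM. LGDMEM overlapped EMEM and HGDMEM lay below both. The pooled log2 difference of -0.50 (adjusted p = 0.629) was -0.11 in LGDMEM and -1.03 in HGDMEM, and HGDMEM minus LGDMEM was -0.91 (adjusted p = 0.00512). CARHSP1, an RNA-binding phosphoprotein, was at 132.3, 106.0 and 144.2 CPM in LGDMEM, 600.5, 194.0 and 184.0 CPM in HGDMEM and 801.2, 730.3 and 617.0 CPM in EMEM. HGDMEM 1 alone was near EMEM, and the other 5 DMEM libraries were far below. CARHSP1 had a log2 difference of -1.66 (SE 0.43, edgeR adjusted p = 0.22). CPLX2, CARHSP1 and the genes of the next 2 paragraphs were chosen after their values were seen.

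A further 11 genes had an adjusted p between 0.05 and 0.1, 2 of them higher and 9 lower in DMEM. In 10 of them the groups did not overlap, as in 4.3% of all genes tested. The 11 were picked by p in the same comparison, so this lack of overlap adds no support. None passed the threshold. Among the lower ones, TAGLN (transgelin, an actin-binding protein) ran from 50.8 to 81.4 CPM in DMEM (median 65.7) and was at 99.5, 126.2 and 104.8 CPM in EMEM, a log2 difference of -0.78 (SE 0.16, edgeR adjusted p = 0.0768). ACTA1, skeletal muscle actin, ran from 6.34 to 10.9 CPM in DMEM (median 9.24) and was at 27.4, 10.3 and 30.5 CPM in EMEM. ACTA1 is the gene of the 11 whose groups overlapped, since EMEM 2 was as low as DMEM. TUBB6, a beta-tubulin, ran from 71.5 to 98.5 CPM in DMEM (median 89.5) and was at 116.8, 150.8 and 130.4 CPM in EMEM.

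TIMP2, an inhibitor of matrix metalloproteinases, ran from 66.4 to 91.4 CPM in DMEM (median 72.9) and was at 100.7, 124.2 and 111.3 CPM in EMEM. PKDCC, a secreted kinase that phosphorylates matrix proteins, ran from 190.8 to 240.0 CPM in DMEM (median 225.2) and was at 285.9, 323.6 and 327.7 CPM in EMEM. For both genes all DMEM libraries were below EMEM, with log2 differences of -0.59 and -0.52. The remaining lower ones were DLK2, a membrane protein related to Notch ligands (-1.11), the phosphatase gene CTDSPL (-0.59), KRTAP3-1 (-1.73) and the apoptosis inhibitor BIRC3 (-3.40), which rests on 0 to 4 reads in each DMEM library and 10 to 18 in each EMEM library. The higher ones were ANXA4, an annexin that binds membranes with calcium, and SERPINC1. ANXA4 ran from 80.5 to 92.6 CPM in DMEM (median 84.3) and was at 57.0, 61.4 and 54.1 CPM in EMEM, a log2 difference of 0.57. The DMEM libraries of ANXA4 were all above EMEM.

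**Figure D3:**
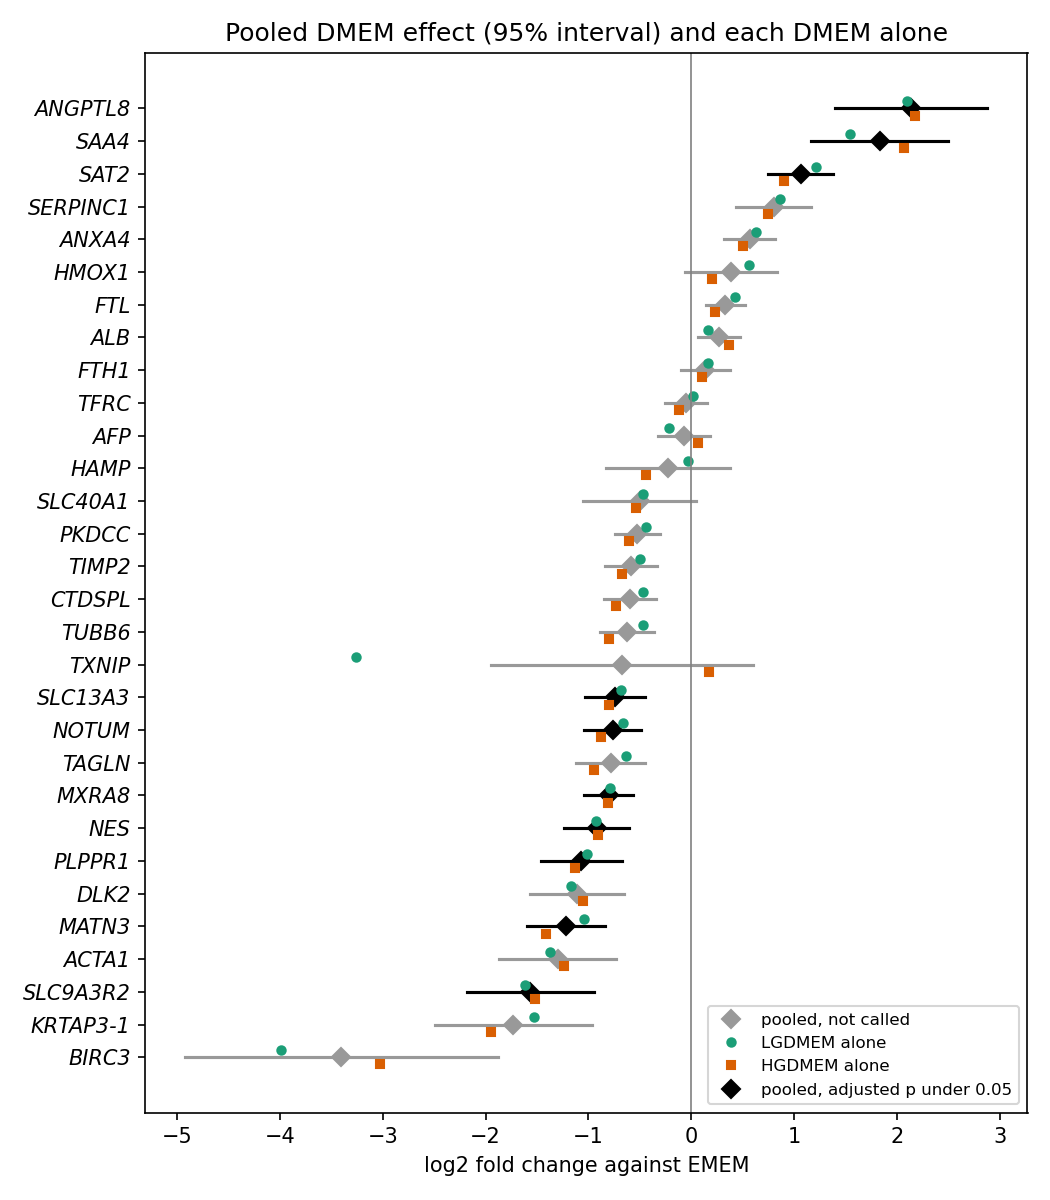
Log2 fold change against EMEM of the genes reported here by rule or with an adjusted p under 0.1, as diamonds for pooled DMEM with the 95% interval (black where called), circles for LGDMEM alone and squares for HGDMEM alone. The circle and square lie close together for most genes and far apart for TXNIP, at -3.26 and 0.18. ARRDC4, with reads in 2 libraries, is left out.

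Gene lists were read by counts of members at an unadjusted p under 0.05, since SAA4 was the only called member of the 28 lists written from pathway and tissue knowledge. A further 3 lists, on matrix and adhesion, actin and Wnt, were written after the called genes had been seen, and they give no independent evidence. This also holds for the counts below that leave out their members of smallest p, since each list follows a theme seen in these data. List members named below were chosen after their values were seen, other than those always given. For all genes the median log2 difference was 0.00, with quartiles of -0.16 and 0.17. Of all 10945 genes, 5532 differences were above 0 and 5412 below. At an unadjusted p under 0.05, 372 genes were higher (3.4%) and 406 lower (3.71%), and without LGDMEM 3 these were 412 and 533.

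Matrix and adhesion genes were the list with the largest share on 1 side. Of 32 measured members, 0 were higher and 15 lower in DMEM at an unadjusted p under 0.05 (46.9%, against 3.71% of all genes), 2 of them called, and the median log2 difference was -0.33. Without the 6 members among the 30 genes of smallest p, from which the list was drawn up, 9 of 26 were lower and 0 higher, with a median of -0.25. The mean level of the list in each DMEM library, relative to the EMEM mean, was between -0.49 and -0.21 on the log2 scale, and that of the EMEM libraries between -0.04 and 0.03. LGDMEM 3 was the DMEM library nearest to EMEM, and without it 19 of 32 members were lower, beside 533 of all 10945 genes.

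The basement membrane component COL18A1 ran from 92.6 to 113.4 CPM in DMEM (median 106.6) and was at 143.4, 142.4 and 144.1 CPM in EMEM, a log2 difference of -0.45 (edgeR adjusted p = 0.204). Of the integrin genes, which encode receptors for matrix, ITGAV had -0.55, ITGA1 -0.51 and ITGB4 -0.81. The basement membrane proteins HSPG2 (perlecan) and LAMB1 (a laminin chain) had -0.44 and -0.35. FN1, fibronectin, overlapped between the groups: it ran from 3279 to 5055 CPM in DMEM and was at 4671, 5149 and 4369 CPM in EMEM, a log2 difference of -0.24 (adjusted p = 0.683).

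A list of mesenchymal genes that was not drawn up from the called genes had 1 higher and 5 lower of 15 at an unadjusted p under 0.05. These shares were 6.67% and 33.3%, against 3.4% and 3.71% of all genes. The median of -0.14 lay inside the quartiles of all genes, and 7 differences were above 0 and 8 below. Outside the 30 genes of smallest p, 7 of 14 were above 0 and 7 below, with a median of -0.06. The lower ones were TAGLN, CYR61, TGFBI, CDH2 and FN1, and each apart from CDH2, the N-cadherin gene, also stands in the matrix or the actin list. CDH2 ran from 124.0 to 167.5 CPM in DMEM and was at 180.8, 180.7 and 172.7 CPM in EMEM, so that its groups did not overlap (log2 difference -0.30, edgeR adjusted p = 0.511).

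Genes of the actin cytoskeleton and targets of the actin-sensing factor SRF were also found on the lower side. Of 43 measured, 0 were higher and 12 lower at an unadjusted p under 0.05 (27.9%, against 3.71% of all genes). Of the 12, 0 were called, and the median of the list was -0.17. Outside the 30 genes of smallest p the counts were 0 and 8 of 39. Relative to the EMEM mean, the list's level was -0.42 to -0.38 in HGDMEM and -0.18, -0.06 and -0.38 in LGDMEM 1 to 3, all below the EMEM libraries. The tropomyosin TPM4 ran from 449.1 to 598.4 CPM in DMEM (median 495.7) and was at 665.8, 680.5 and 682.8 CPM in EMEM, a log2 difference of -0.40 (edgeR adjusted p = 0.256). The smooth muscle calponin CNN1 ran from 0.226 to 2.96 CPM in DMEM (median 0.905) and was at 8.74, 5.70 and 5.26 CPM in EMEM, a log2 difference of -2.37 (adjusted p = 0.16). Every row of the deposited table had at least 3 libraries at 2.51 CPM. CNN1, 1 of the 12 lower members, reached that level only in EMEM and in HGDMEM 3. CNN1 was thus kept through its high EMEM level, and its fall adds no support. CYR61 and ANKRD1, targets of the YAP coactivator, had -1.22 and -0.70. Both overlapped EMEM through LGDMEM 2.

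Wnt and beta-catenin genes had 0 higher and 10 lower of 33 at an unadjusted p under 0.05 (30.3% lower, against 3.71% of all genes). Of the 10, 1 was called (NOTUM), but the median of the list was near 0 at -0.05. Outside the 30 genes of smallest p, 8 of 31 were lower and 0 higher. Beta-catenin itself, CTNNB1, ran from 217.4 to 262.7 CPM in DMEM (median 231.6) and was at 322.8, 327.3 and 302.5 CPM in EMEM, a log2 difference of -0.43 (SE 0.10, edgeR adjusted p = 0.124). The groups of CTNNB1 did not overlap. AXIN2, a feedback inhibitor and standard readout of the pathway, was at 38.6, 38.5 and 37.6 CPM in LGDMEM, 25.1, 31.3 and 25.8 CPM in HGDMEM and 45.9, 64.8 and 37.4 CPM in EMEM. LGDMEM overlapped EMEM 3, so the groups of AXIN2 were not separate (log2 difference -0.59, adjusted p = 0.395). The receptor-removing ligase RNF43, the feedback inhibitor NKD1 and the R-spondin receptor LGR5 had -0.45, -0.29 and -0.38.

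**Figure D4:**
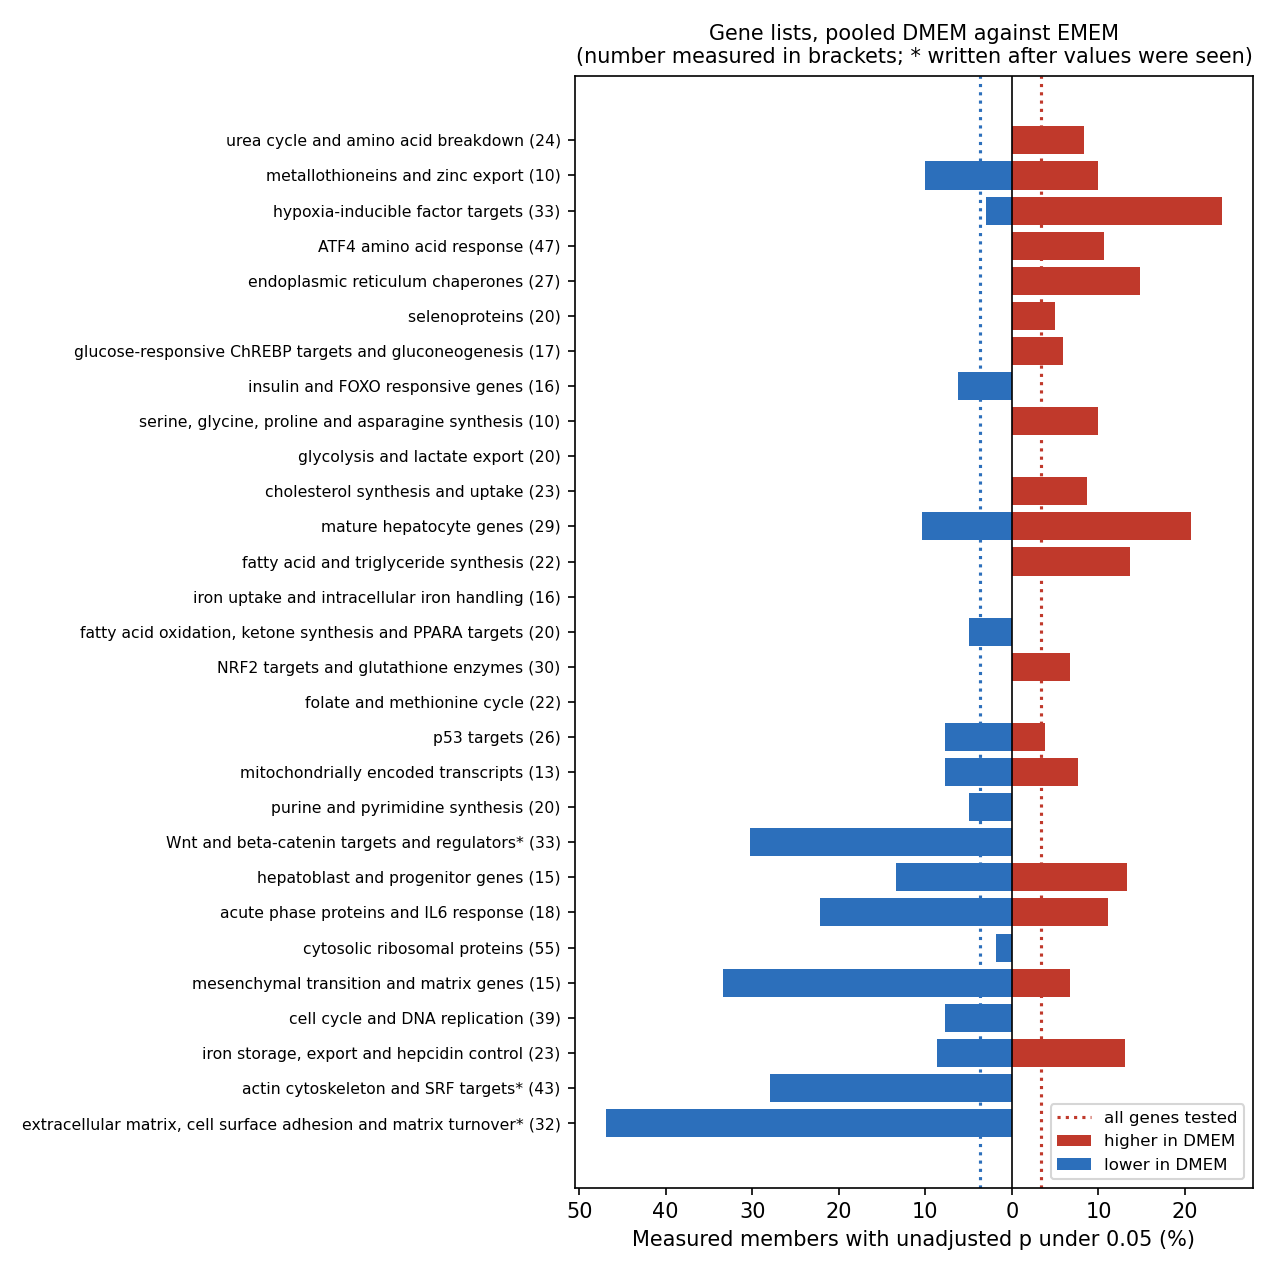
Share of measured members, for lists with at least 10 of them, with an unadjusted p under 0.05, to the right for higher and to the left for lower in DMEM, with the number measured in brackets and dotted lines at the shares of all genes tested (3.4% and 3.71%). Matrix and adhesion, mesenchymal, Wnt and actin lists reach furthest to the left, hypoxia targets and mature hepatocyte genes furthest to the right, and the lists marked with an asterisk were written after values were seen.

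Iron genes gave no call. Of 16 measured genes of iron uptake and intracellular handling, 0 had an unadjusted p under 0.05 in either direction, and the median log2 difference was 0.04. The transferrin receptor TFRC, which iron shortage raises, was at 337.2, 299.97 and 331.2 CPM in LGDMEM, 288.1, 286.5 and 304.6 CPM in HGDMEM and 305.6, 315.9 and 335.1 CPM in EMEM. LGDMEM overlapped EMEM in TFRC and HGDMEM lay just below it, with a log2 difference of -0.05 and a 95% interval of -0.25 to 0.15. Of 23 genes of iron storage, export and hepcidin control, 3 were higher (FURIN, FTL, HPX) and 2 lower (ID3, CP) at an unadjusted p under 0.05. These shares were 13% and 8.7%, against 3.4% and 3.71% of all genes. Of the 23, 13 had a difference below 0, with a median of -0.17. ID3, a transcriptional regulator that answers to BMP signals, ran from 89.0 to 175.9 CPM in DMEM (median 127.5) and was at 203.2, 175.3 and 216.0 CPM in EMEM. LGDMEM 2 alone of the DMEM libraries reached EMEM in ID3, which had a log2 difference of -0.62 (SE 0.16, edgeR adjusted p = 0.204). CP, the copper enzyme ceruloplasmin that oxidises iron, overlapped between groups and had -0.54 (SE 0.26, adjusted p = 0.699).

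The ferritin light chain FTL was at 7526, 7807 and 7858 CPM in LGDMEM, 6450, 6856 and 6867 CPM in HGDMEM, and 5825, 5618 and 5770 CPM in EMEM. All DMEM libraries of FTL were above EMEM and LGDMEM was above HGDMEM, with a log2 difference of 0.33 (SE 0.09, edgeR adjusted p = 0.254). The heavy chain FTH1 overlapped between groups, at 292.2 to 343.2 CPM in DMEM (median 313.2) and 252.4, 255.8 and 346.7 CPM in EMEM (log2 difference 0.14, 95% interval -0.10 to 0.38). Hepcidin, HAMP, ran from 21.1 to 67.6 CPM in DMEM (median 34.3) and was at 44.9, 47.9 and 40.0 CPM in EMEM, a difference of -0.22 with an interval of -0.82 to 0.38. The iron exporter SLC40A1 had -0.50 (interval -1.05 to 0.05) and the haem-degrading enzyme HMOX1 had 0.39 (interval -0.06 to 0.84). FURIN, a protease that cleaves prohormones including hepcidin's, ran from 55.0 to 112.3 CPM in DMEM (median 75.3) and was at 44.7, 49.3 and 49.7 CPM in EMEM. All DMEM libraries of FURIN were above EMEM, a log2 difference of 0.70 (adjusted p = 0.169).

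Plasma protein genes split by protein rather than moving as 1 block. Of 29 mature hepatocyte genes, 6 were higher and 3 lower at an unadjusted p under 0.05, with a median of 0.07. These shares were 20.7% and 10.3%, against 3.4% and 3.71% of all genes. The lower 3 were the fibrinogen chains FGA, FGB and FGG, which are encoded side by side and assemble into 1 clotting protein. FGB was at 858.2, 750.1 and 711.4 CPM in LGDMEM, 914.7, 924.6 and 949.0 CPM in HGDMEM and 1201, 1107 and 1265 CPM in EMEM. LGDMEM was lowest, HGDMEM was between and EMEM was highest, with a log2 difference of -0.48 (SE 0.11, edgeR adjusted p = 0.117). FGA had -0.35 and FGG -0.26, with the same order of media means. Albumin, ALB, was at 8899, 8823 and 10672 CPM in LGDMEM, 10050, 11338 and 11414 CPM in HGDMEM and 8194, 8717 and 8449 CPM in EMEM. Albumin was above EMEM in all DMEM libraries, by 0.27 (SE 0.10, adjusted p = 0.497).

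SERPINC1 was at 112.6, 92.4 and 176.1 CPM in LGDMEM, 112.3, 105.1 and 135.4 CPM in HGDMEM and 70.6, 59.6 and 79.7 CPM in EMEM, so that all DMEM libraries were higher. The other higher members were APOH (beta-2 glycoprotein 1, 0.34), APOE (0.35), APOB (0.20) and the haem carrier HPX (0.75). The fetal protein AFP overlapped between groups, with 4235 to 6714 CPM in DMEM (median 5540) and 5932, 5645 and 6256 CPM in EMEM, a log2 difference of -0.07. Of 15 hepatoblast genes, PEG10 had -0.39 and HMGA2 -0.20 while DLK1 had 0.35 and IGF2 1.68. PEG10, a retrotransposon-derived gene active in fetal tissue and liver cancer, ran from 2203 to 2895 CPM in DMEM (median 2577) and was at 3492, 3337 and 3228 CPM in EMEM. The groups of PEG10 did not overlap, and its edgeR adjusted p was 0.16.

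Amino acid lists were mostly on the higher side without a call. Of 24 genes of the urea cycle and amino acid breakdown 20 had a log2 difference above 0, beside 5532 of all 10945 genes. The median was 0.25, and 2 were higher at an unadjusted p under 0.05 (8.33%, against 3.4% of all genes). GOT1, the cytosolic aspartate aminotransferase, was at 193.6, 255.0 and 398.9 CPM in LGDMEM, 189.4, 220.8 and 236.3 CPM in HGDMEM and 136.9, 182.8 and 159.2 CPM in EMEM. All DMEM libraries of GOT1 were above EMEM, a log2 difference of 0.64 (edgeR adjusted p = 0.316). ASS1, which joins citrulline and aspartate in the urea cycle, had 0.71 (adjusted p = 0.511), also without overlap. Of 20 selenoprotein genes 18 had a difference above 0, with a median of 0.14. DIO1, a selenium-containing deiodinase that activates thyroid hormone, ran from 6.34 to 11.9 CPM in DMEM (median 10.1) and was at 2.43, 1.96 and 5.89 CPM in EMEM. DIO1 had a log2 difference of 1.46 (adjusted p = 0.471).

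The stress lists were highest in LGDMEM 3, with LGDMEM 2 next. Hypoxia-inducible factor targets had 8 higher and 1 lower of 33 at an unadjusted p under 0.05 and a median of 0.20. These shares were 24.2% and 3.03%, against 3.4% and 3.71% of all genes. Without LGDMEM 3 these targets had 2 higher and 3 lower, beside 412 and 533 of all 10945 genes, and a median of -0.01. The ATF4 amino acid response list went from 5 higher (10.6%) and 0 lower of 47 (median 0.16) to 1 and 0 (median 0.06). Endoplasmic reticulum chaperones went from 4 higher (14.8%) and 0 lower of 27 (median 0.15) to 3 and 1 (median 0.03). The medians of the hypoxia, ATF4 and chaperone lists were 0.51, 0.35 and 0.38 in LGDMEM alone. In HGDMEM alone they were -0.04, -0.01 and -0.01. The mean level of the ATF4 list was 0.81 above the EMEM mean in LGDMEM 3 and 0.64 in LGDMEM 2 on the log2 scale, against -0.16 to 0.03 in the other DMEM libraries, and for the chaperones it was 0.92, 0.30 and -0.15 to 0.12. The mean level of the hypoxia list in LGDMEM 3 was 1.32 above the EMEM mean on the log2 scale, against -0.17 to 0.63 in the other DMEM libraries. EPO, the kidney and liver hormone that hypoxia raises, was at 21.5, 18.1 and 32.8 CPM in LGDMEM, 10.9, 9.93 and 18.2 CPM in HGDMEM and 5.34, 9.08 and 7.78 CPM in EMEM. EPO was above EMEM in all DMEM libraries (log2 difference 1.31, edgeR adjusted p = 0.405). CA9, another hypoxia target, was at 0.505, 3.93 and 20.6 CPM in LGDMEM, 0.75, 1.32 and 5.50 CPM in HGDMEM and 0, 2.14 and 0.631 CPM in EMEM. LGDMEM 3 alone was far above the rest in CA9.

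Cell cycle genes had 0 higher and 3 lower of 39 at an unadjusted p under 0.05 (7.69% lower, against 3.71% of all genes). Their median was -0.14, and -0.02 without LGDMEM 3. Cytosolic ribosomal protein genes had 49 of 55 differences below 0, beside 5412 of all 10945 genes, with a median of -0.09. Of them 1, RPS3, was lower at an unadjusted p under 0.05 (1.82%, against 3.71% of all genes). Without LGDMEM 3 there were 12 lower, beside 533 of all 10945 genes. Cholesterol synthesis and fatty acid synthesis lists had 2 of 23 and 3 of 22 higher and 0 lower at an unadjusted p under 0.05. The higher shares were 8.7% and 13.6%, against 3.4% of all genes. Their medians of 0.08 and 0.05 lay inside the quartiles of all genes, and 15 of 23 and 12 of 22 differences were above 0. The medians were -0.02 and -0.03 in LGDMEM alone and 0.14 and 0.08 in HGDMEM alone. Without LGDMEM 3 the 2 lists had 4 and 6 higher, beside 412 of all 10945 genes, with 0 lower and medians of 0.15 and 0.13. Glycolysis had 0 of 20 in either direction, and the folate and methionine cycle had 0 of 22.

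**Figure D5:**
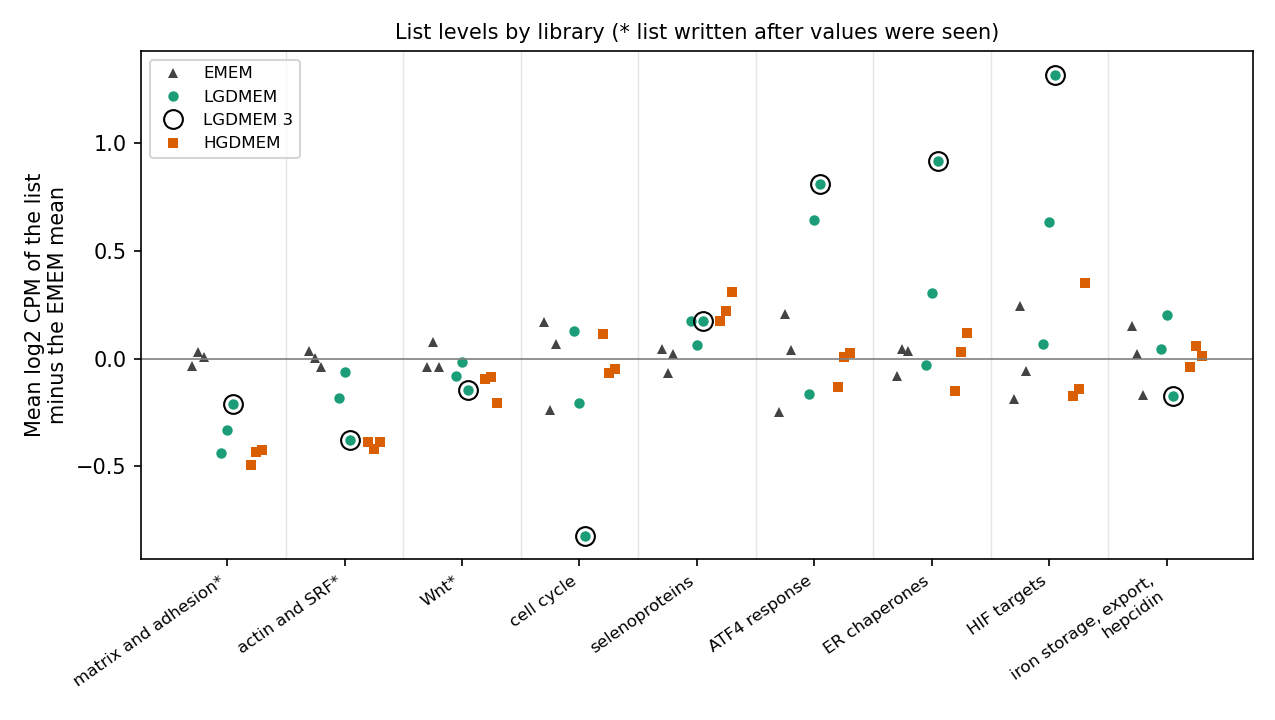
Mean log2 CPM of 9 lists in each library minus the mean of the 3 EMEM libraries, with triangles for EMEM, circles for LGDMEM, squares for HGDMEM and a ring around LGDMEM 3. Mean log2 levels of the matrix and adhesion, actin and selenoprotein lists do not overlap between DMEM and EMEM. The gap is narrow for actin (LGDMEM 2 at -0.06, EMEM 3 at -0.04) and selenoproteins (LGDMEM 2 at 0.06, EMEM 1 at 0.04). The matrix and actin lists were written after values were seen, so their separation is no independent evidence. The ATF4, chaperone, hypoxia and cell cycle lists spread widely, with LGDMEM 3 at 0.81, 0.92, 1.32 and -0.82.

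Library totals and the mitochondrial share overlapped between DMEM and EMEM. Deposited totals ran from 4131093 to 6015796 counts per library over the series. Mitochondrial transcripts took 10.95% ± 0.95 of counts in DMEM (SD, n = 6) and 11.41% ± 1.11 in EMEM (SD, n = 3), with a two-sided exact permutation p of 0.56 over 84 splits, and library totals gave an exact permutation p of 0.964. On the first principal component of the 9 libraries (21.0% of variance) LGDMEM 3 was at 50.6 and the other 8 between -18.3 and 13.0. On the second (14.3%) the EMEM libraries lay between 13.5 and 33.6 and the DMEM libraries between -25.7 and -0.92.

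The cells are labelled hepatic, and the 8 hepatocyte markers, all of them measured, summed to 21020 to 24487 CPM in DMEM and 20656 to 21434 CPM in EMEM. Of 7 endothelial and stromal markers 2 were measured and summed to 3.64 to 14.9 CPM in DMEM and 11.2 to 12.8 CPM in EMEM. Of 5 leukocyte markers 3 were measured, without PTPRC and CD3E, and LYZ made up nearly all of their sum, at 2112 to 3149 CPM in DMEM and 2648 to 3288 CPM in EMEM. CD68, a lysosomal protein abundant in macrophages, ran from 4.64 to 11.0 CPM in DMEM (median 7.95) and was at 3.16, 2.31 and 1.26 CPM in EMEM. CD68 had a log2 difference of 1.78 (edgeR adjusted p = 0.16) with no overlap, and CD14 overlapped. The part of other cell types in the results was not tested.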

How the data were processed

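RNA of HepG2 cells was sequenced as 12 QuantSeq 3′ libraries, 3 in each of 4 media, per the labels' protocols. Samples were grouped by the medium in their labels. The authors deposited 1 table of raw counts per gene symbol with 11546 rows. The submitters' processing notes name hg19 and GRCh37 and list the tools STAR 2.7.5b, featureCounts 1.6.3, cutadapt 1.16, FastQC 0.72 and limma 3.40.6 with no roles. The filter and the strand setting behind the counts are not given in the sources used here. In every row at least 3 libraries reached 2.51 CPM, so low rows had been removed and totals are not full depth.

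The 601 rows without a symbol (2.92% to 3.71% of counts) were left out, which left 10945 genes and 3995365 to 5840057 counts per library. Another 5 symbols stand on 2 rows and 17 look like dates. Counts were tested with edgeR 4.0.16 (R 4.3.3, TMM, quasi-likelihood, Benjamini-Hochberg at 0.05) on all 12 libraries in the groups DMEM, EMEM and Plasmax, and with 4 media groups for LGDMEM and HGDMEM singly. The low-count filter of edgeR removed 0 genes. The test was tried on simulated counts first. SE is the log2 fold change over the square root of F. CPM use TMM-scaled library sizes, and the level of a list in a library is its members' average log2 CPM (prior count 2). Nothing was tested across lists.

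Genes named by rule were the 12 largest rises and falls among called genes averaging 10 CPM or more whose groups did not overlap, called list members, and TFRC, FTH1, FTL, HAMP, SLC40A1, HMOX1, TXNIP, ARRDC4, ALB and AFP. The comparison, the rule and the 28 gene lists were chosen with earlier results of these data known, and 3 lists after the values here. Among the called genes 1, and a few list members, are not reported here. Alternatives were other scalings and filters, DESeq2 1.42.0, limma voom (3.58.1), a contrast of 2 DMEM groups, the 9 libraries alone, a replicate block, an adjusted p of 0.01 and each library left out. Libraries sharing a replicate number were checked for deviating together. The rule for pairing, all 3 correlations above 0.1, was not met, so the main fit has no pairing. The check cannot exclude a shared effect of the number. Promoters and overlapping genes were matched by symbol, and no coordinates were converted between builds.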

Additional observations from a re-analysis of the deposited data

Results flagged for a closer look

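Of 72 values examined for a library far from the others (the gap of the highest or lowest DMEM library to its neighbour over the whole range of the 6), 8 had one, and chance alone marks about 5% of such groups. LGDMEM 3 was the library in 4 of the 8. Its mean level was the lowest of the 6 DMEM libraries in the cholesterol list, with a gap of 0.658 of the range, in the fatty acid synthesis list (0.643) and in the cell cycle list (0.647), and it was the highest for MATN3 (0.748).

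LGDMEM 2 was highest for TIMP2, with a gap of 0.668 of the range. HGDMEM 1 was highest for CARHSP1 (0.822) and for BIRC3 (0.664), the latter on 4 reads. HGDMEM 2 was the only DMEM library with any read of ARRDC4, a gap of 1.000.

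The DMEM media differed from each other, by edgeR's test of HGDMEM minus LGDMEM, in TXNIP (3.44 on the log2 scale, adjusted p = 0.00057) and in CPLX2 (-0.91, adjusted p = 0.00512). In both genes the pooled DMEM value is therefore a mean of unlike media.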

How the results depend on the processing

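The 11 calls were the same 11 genes under RLE, upper-quartile and total-count scaling and with a mean of at least 5 CPM. The filter removed 0 genes, so leaving it off changes nothing by construction. DESeq2 gave 49 calls (16 higher, 33 lower), the contrast of 2 DMEM groups 23 (20 lower) and an adjusted p of 0.01 gave 3 (1 higher, 2 lower). limma voom gave 9 calls (1 higher, 8 lower), 8 of them among the 11, without ANGPTL8, SAA4 and SLC9A3R2, and the 9 libraries alone gave 9 (3 higher, 6 lower), all among the 11. Leaving out 1 library gave 5 to 25 calls, with 1 to 7 higher and 3 to 18 lower. The low end came without HGDMEM 2, EMEM 2 or EMEM 3 and the high end without LGDMEM 3. Genes without overlap were 271 to 492 above and 326 to 533 below, since fewer libraries overlap less often.

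For LGDMEM against EMEM, with 8 calls, DESeq2 gave 65, the 9 libraries alone 4, an adjusted p of 0.01 gave 2 and leaving out 1 library 2 to 87. For HGDMEM against EMEM, with 18 calls, the values were 68 with DESeq2, 2 at an adjusted p of 0.01 and 1 to 45 with 1 library out. For HGDMEM against LGDMEM, with 7 calls, they were 55 with DESeq2, 4 with limma voom and 4 to 118 with 1 library out. The values of 87 and 118 came without LGDMEM 1, the value of 45 without LGDMEM 3 and the value of 1 without HGDMEM 2. The cause was not tested.

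Same-numbered EMEM and DMEM libraries deviated together with correlations of 0.199, 0.097 and 0.038 over all genes and 0.338, 0.2 and 0.052 over the 4366 genes averaging more than 5 in log2 CPM. The third was under 0.1 both times, so by the rule set the numbers are not taken as pairs. All 3 correlations were above 0, and the main p-values take no account of pairing. Mitochondrial shares of LGDMEM, HGDMEM and EMEM were 12.2%, 11.9% and 12.3% in number 1 and 10.6%, 10.3% and 10.2% in number 2. In number 3 they were 9.8%, 10.8% and 11.8%. A replicate block on the 9 libraries gave 8 calls in the pooled comparison, 3 higher and 5 lower, 7 of them among the 11, without ANGPTL8 (adjusted p = 0.054), NOTUM (0.0602), NES (0.0629) and SLC9A3R2 (0.135). With the block there were 21 calls for LGDMEM and 22 for HGDMEM against EMEM and 19 between the DMEM media. Of the 3 numbers, 2 correlated best with their own over all genes and 1 over the more abundant ones.

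ARRDC4, with 5 reads, turned from 0.71 to -0.027 with limma voom, -0.21 with the contrast of 2 DMEM groups and -1.89 without HGDMEM 2 (range with 1 library out -1.89 to 2.64), and AFP from -0.07 to 0.0053 without LGDMEM 2 (range -0.12 to 0.0053). Depth limits genes such as BIRC3, CNN1 and CA9, with few reads in a library.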
